A study of Mus musculus with 12 samples.

Results

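TRP channels are cation channels of the cell membrane that open to chemical, thermal or receptor-driven signals. This account describes the 9 TRP channel genes *Trpc1*, *Trpc4*, *Trpc5*, *Trpc6*, *Trpc7*, *Trpm2*, *Trpm3*, *Trpm7* and *Trpm8* among the 24480 genes measured in the dorsolateral geniculate nucleus (dLGN), the thalamic relay from retina to visual cortex, at postnatal day 0 (P0). They were taken by gene symbol, 5 with a Trpc and 4 with a Trpm name, and all 9 passed the filter on low counts in both mouse lines. *Trpm8* was selected on its own values here, a lower level in the mutants of one line and a higher level in those of the other, so it is described without a test. The other 8 were tested.

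RNA-seq was performed on 12 libraries, 3 in each of 4 groups. *Sox2* mutants carried Sox2flox/flox with Ror-alphaCre, and their controls were Sox2flox/flox or Sox2flox/+ with no Cre. *Nr2f1* mutants carried Nr2f1 flox/flox with Ror-alphaCre. The label of the *Nr2f1* controls names the floxed alleles and Ror-alphaCre but also states no Cre, and the study's methods describe them as floxed littermates lacking Cre. Each library pooled the dLGNs of 3 animals. The Cre is expressed from the *Rora* locus, which is active in postmitotic neurons of the sensory thalamus, and recombination by cell type was not measured here. Since this is bulk tissue, fewer cells of a type and less RNA per cell cannot be told apart. Libraries are named here by the number or letter of their column. *Sox2* fell from 369 ± 11.7 CPM (a library's counts scaled to a common total, with TMM scaling) in its controls to 139 ± 20.2 in its mutants (SD, n = 3), and *Nr2f1* fell from 354 ± 37.5 to 119 ± 27.5 in its own mutants. The libraries held 39293465 to 50095344 counts.

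TRPC channels open downstream of receptors that couple to Gq proteins and phospholipase C, and TRPC1, TRPC4 and TRPC5 can assemble with each other. Among the TRPM channels, TRPM2 is gated by ADP-ribose and calcium and responds to oxidative stress, TRPM3 opens to heat and to the neurosteroid pregnenolone sulfate, TRPM7 joins a channel to a kinase and conducts magnesium, and TRPM8 is the cold and menthol receptor of sensory neurons. In neurons, TRPC channels are known to carry slow excitation set off by metabotropic receptors.

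The upstream sequence of the 3 genes on which the results turn is shown so that each can be read beside its expression. These are the bases before the annotated start and before any annotated exon, from RefSeq on GRCm38.p6, written 5′ to 3′ on the strand of the gene. The capitals mark the letters ACAAT, the core of SOX binding motifs. *Trpm8* lies on chr1:88306735-88388853 on the plus strand and its sequence is from chr1:88306485-88306661. *Trpm2* lies on chr10:77907722-77969909 on the minus strand and its sequence is from chr10:77969873-77970122. *Trpm3* lies on chr19:22137797-22995410 on the plus strand, hosts *Mir204*, and has more than one start. Its sequence precedes the start after chr19:22138796-22139045, which lies within that span, and the bases before the span were not searched.

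Trpm8: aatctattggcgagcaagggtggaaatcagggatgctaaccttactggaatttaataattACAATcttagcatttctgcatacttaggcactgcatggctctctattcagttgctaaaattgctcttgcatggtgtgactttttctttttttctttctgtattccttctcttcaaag

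Trpm2: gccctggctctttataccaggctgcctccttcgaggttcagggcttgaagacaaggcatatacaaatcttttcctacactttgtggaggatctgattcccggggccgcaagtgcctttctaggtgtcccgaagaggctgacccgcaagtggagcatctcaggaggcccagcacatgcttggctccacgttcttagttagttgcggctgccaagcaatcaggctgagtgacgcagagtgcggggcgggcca

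Trpm3: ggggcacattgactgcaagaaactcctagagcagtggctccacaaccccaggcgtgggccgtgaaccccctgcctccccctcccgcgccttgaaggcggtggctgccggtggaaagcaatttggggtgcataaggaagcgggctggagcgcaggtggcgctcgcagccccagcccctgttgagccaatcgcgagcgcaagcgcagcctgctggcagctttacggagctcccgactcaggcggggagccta

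Both strands of windows of 250 bases before each start used here were searched for ACAAT and for AGGTCA, a motif bound by nuclear receptors. *Trpm8* held 1 ACAAT, on the plus strand 190 bases upstream of its start, and 0 AGGTCA. The windows of *Trpm2* and of the *Trpm3* start shown held neither, while that of another *Trpm3* start held 1 AGGTCA, 234 bases upstream on the strand opposite to the gene, and that of *Trpc5* held 1 ACAAT, 67 bases upstream on the opposite strand. Of 32851 windows before RefSeq starts, 27.7% held ACAAT and 14.0% held AGGTCA. A match describes letters and does not show binding. The other genes lie at chr9:95705072-95750386 (*Trpc1*, minus strand), chr3:54155584-54318471 (*Trpc4*, plus), chrX:144377327-144688180 (*Trpc5*, minus), chr9:8543867-8680752 (*Trpc6*, plus), chr13:56773098-56895968 (*Trpc7*, minus) and chr2:126791558-126876261 (*Trpm7*, minus).

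In the controls, compared per kilobase of the longest transcript, *Trpm3* had the highest level and *Trpc6* the lowest. *Trpm3* was at 8.05 ± 1.59 CPM per kb in the *Sox2* line controls and 11.1 ± 0.766 in the *Nr2f1* line controls (SD, n = 3). *Trpm7* and *Trpc1* followed, then *Trpm2* and *Trpc5*, then *Trpc7*. The order of *Trpm2* and *Trpc5* was not the same in both: among *Sox2* line controls *Trpm2* had 3.14 ± 0.200 and *Trpc5* 2.43 ± 0.516 CPM per kb, while among *Nr2f1* line controls they stood at 3.10 ± 0.214 and 3.36 ± 0.151, with overlapping libraries. *Trpm7* and *Trpc1* also overlapped, at 5.94 to 6.18 and 4.48 to 6.04 CPM per kb in *Sox2* line controls and 5.59 to 6.20 and 5.33 to 5.84 in *Nr2f1* line controls. Low in the order, *Trpm8* had 0.797 ± 0.150 and 0.823 ± 0.0599 CPM per kb, *Trpc4* 0.424 ± 0.102 and 0.433 ± 0.0775, and *Trpc6* 0.146 ± 0.0470 and 0.147 ± 0.0300. *Trpm3* has a longest transcript of 12305 bases and short ones. With the median transcript length its control level was 19.3 and 26.7 CPM per kb, still the highest.

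**Figure D1:**
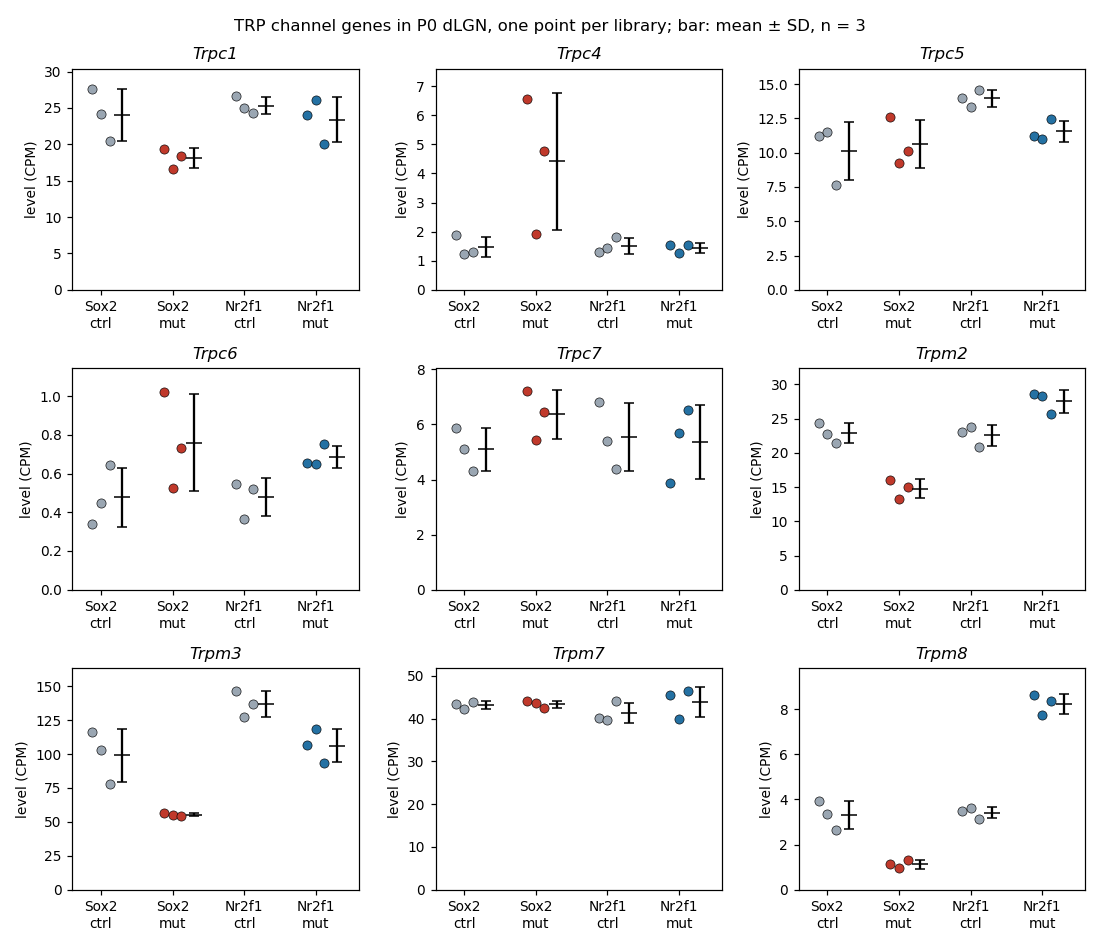
Level of the 9 TRP channel genes in each of the 12 libraries, in CPM on a linear axis from 0; points are libraries and bars are the mean ± SD of 3. Trpm8 was at 0.938 to 1.31 CPM in the Sox2 mutants and at 7.76 to 8.63 in the Nr2f1 mutants, against 2.67 to 3.91 over the controls of both lines.

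*Trpm8*, the cold receptor, had 3.91, 3.34 and 2.67 CPM in the *Sox2* control libraries 1, 2 and 3, from 173, 141 and 108 counts. The *Sox2* mutant libraries 1, 3 and 4 had 1.12, 0.938 and 1.31 CPM, from 46, 41 and 59 counts. Every mutant library lay below every control. The mean was 33.9% of the control level, from 3.31 ± 0.623 to 1.12 ± 0.184 CPM (SD, n = 3), a log2 difference of -1.56.

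The *Nr2f1* control libraries B, D and E had 3.50, 3.60 and 3.13 CPM of *Trpm8*. The mutant libraries A, B and C had 8.63, 7.76 and 8.35 CPM, from 344, 358 and 388 counts. Here every mutant library was above every control. The mean was 3.41 ± 0.248 CPM in controls and 8.25 ± 0.447 in mutants (SD, n = 3), 2.42-fold, a log2 difference of 1.27. The difference between the changes, *Sox2* line minus *Nr2f1* line, was -2.82 on the log2 scale. No p is given for it, since the gene was chosen for this pattern. The controls of the lines had close levels, 3.27 and 3.44 CPM when all 12 libraries were scaled together. *Trpm8* overlaps the RefSeq gene *Gm51639*, and the counting strand is not stated, so reads of both could be combined.

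**Figure D2:**
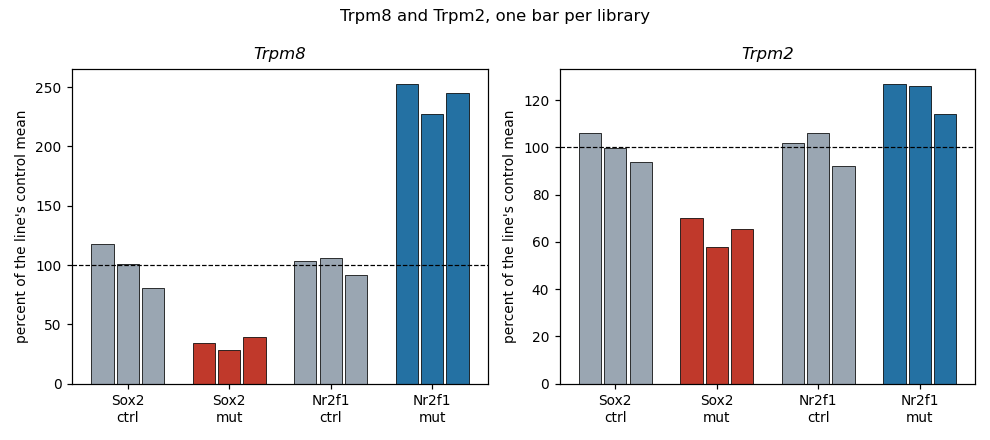
Trpm8 and Trpm2 in each library as a percent of the mean of the controls of its line (dashed at 100), 1 bar a library. Trpm8 stood at 28.4 to 39.5% in the Sox2 mutants and 227 to 253% in the Nr2f1 mutants, and Trpm2 at 58.0 to 70.0% and 114 to 127%.

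*Trpm2*, the ADP-ribose-gated channel, was the 1 tested gene of the 8 whose change differed between the lines. The *Sox2* controls had 24.3, 22.8 and 21.4 CPM, and the *Sox2* mutants 16.0, 13.3 and 15.0 CPM, again with no overlap. It fell to 64.5% of the control level, from 22.9 ± 1.45 to 14.7 ± 1.39 CPM (SD, n = 3; log2 fold change -0.63, SE 0.10, edgeR FDR 0.00273). Controls of the *Nr2f1* line had 23.0, 23.8 and 20.8 CPM and the mutants 28.6, 28.3 and 25.6 CPM, so every mutant library was above the controls. That mean was 122% of control and its log2 fold change, 0.29 ± 0.08 (SE), had an edgeR FDR of 0.0595, above the threshold of 0.01.

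The difference between the changes of *Trpm2* was -0.91 (SE 0.12, edgeR FDR 7.73e-04), in a fit over 12 libraries. This passed in all 16 alternatives, from -0.97 to -0.83. In the *Sox2* line alone, the call was lost without control library 1 (-0.59, edgeR FDR 0.0152), without control library 2 (-0.63, edgeR FDR 0.0152) or without mutant library 4 (-0.64, edgeR FDR 0.0155). Microglia express *Trpm2*, and their marker sum was 130 to 144 CPM in the *Sox2* controls and 269 to 311 in the mutants. Of the microglial markers 7 of 8 were higher there, against 3.90% of all genes. In the *Nr2f1* line their sum was 107 to 122 and 132 to 163 CPM, with 0 of 8 called, against 2.54% of all genes. Their part in the *Trpm2* result was not tested. Other RefSeq genes overlap *Trpm2*, so its reads may be shared with them.

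*Trpm3* fell in the *Sox2* mutants and lay lower in the *Nr2f1* mutants without passing the threshold. The *Sox2* controls had 116, 103 and 77.8 CPM, the mutants 56.5, 55.2 and 54.2. The lowest control was above every mutant. It fell to 55.8% of control, from 99.1 ± 19.6 to 55.3 ± 1.15 CPM (SD, n = 3; log2 fold change -0.84, SE 0.13, edgeR FDR 0.00189). Without control library 2 (-0.81, edgeR FDR 0.0120) or mutant library 4 (-0.83, edgeR FDR 0.0134) the call was lost.

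*Nr2f1* controls had 146, 128 and 137 CPM of *Trpm3* and the mutants 107, 118 and 93.6. These did not overlap, and the mutant mean was 77.5% of control (log2 fold change -0.37, SE 0.08, edgeR FDR 0.0306). The difference between the lines was -0.47 (SE 0.16, edgeR FDR 0.160). Choroid plexus cells express *Trpm3* strongly, and their marker sum spanned 7.04 to 118 CPM in *Sox2* controls and 17.7 to 142 in mutants. It spanned 24.7 to 60.4 and 48.8 to 76.5 in the *Nr2f1* line. In either line 0 of these markers were called, against 8.08% and 2.54% of all genes. The part of choroid plexus cells was not tested. *Trpm3* is also overlapped by other RefSeq genes, so its reads may be shared with them.

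*Trpm7*, which joins a channel to a kinase, passed the threshold in neither line. It stood at 43.3, 42.2 and 43.9 CPM in the *Sox2* controls and 44.1, 43.6 and 42.5 in the mutants, and the groups overlapped. Its log2 fold changes were 0.01 in the *Sox2* mutants (SE 0.06, edgeR FDR 0.946) and 0.09 in the *Nr2f1* mutants (SE 0.08, edgeR FDR 0.517), where libraries ran from 39.8 to 46.4 CPM.

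Of the 5 Trpc genes, edgeR called 0 in either line. At an unadjusted p under 0.05 there were 2 in the *Sox2* line, *Trpc1* and *Trpc4*, both called by DESeq2, and 1 in the other line, *Trpc5*, not called by DESeq2. *Trpc4* had the largest estimate. The *Sox2* controls had 1.88, 1.23 and 1.31 CPM (83, 52 and 53 counts) and the mutants 6.57, 1.92 and 4.76 CPM (270, 84 and 215 counts). Mutant library 3 lay just above the highest control, and libraries 1 and 4 were well above. The mean was 3.00-fold that of controls (1.47 ± 0.353 to 4.42 ± 2.34 CPM, SD, n = 3; log2 fold change 1.58, SE 0.39, edgeR FDR 0.0216). Without mutant library 3, the mutant library nearest the controls, it passed (1.94, edgeR FDR 0.00171). It did not pass with any other single library left out. Over 12 alternatives it passed in 4, with log2 fold changes from 1.19 to 1.94. *Trpc4* in the *Nr2f1* line was at 1.28, 1.43 and 1.80 CPM in controls and 1.56, 1.26 and 1.53 in mutants, which overlapped (log2 fold change -0.06, SE 0.23, edgeR FDR 0.901).

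*Neurod6*, a transcription factor of pallial neurons, had its highest values in the same libraries as *Trpc4*. It was at 10.3, 6.18 and 3.04 CPM in the *Sox2* controls and 31.5, 7.03 and 16.6 in the mutants. Mutant libraries 1 and 4 were the highest for both genes, and also for *Tbr1* (11.8 and 7.88 CPM). *Emx1* was highest in mutant library 1 (2.65 CPM), but mutant library 4 (1.26) lay below control library 1 (1.31). *Zbtb20* was highest in mutant library 3 (7.41 CPM), and *Prox1* was lower in every mutant library than in every control. *Neurod6* in the *Nr2f1* line ran from 3.34 to 5.36 CPM. The list of 5 pallial genes summed to 53.7 to 73.4 CPM in the *Sox2* controls and 46.2 to 82.0 in the mutants. Of the 5, 1 was called, where 8.08% of all genes were. This was *Prox1*, lower, at 43.3 to 59.1 CPM in controls and 26.4 to 29.3 in mutants. *Nr2f1* line sums were 61.6 to 79.3 in controls and 118 to 156 CPM in mutants, and *Prox1* was called higher. Most of these sums was *Prox1* itself, at 49.7 to 69.0 CPM in controls and 105 to 144 in mutants. *Neurod6*, *Emx1* and *Tbr1* had log2 fold changes of -0.13, -0.26 and -0.20 there and *Zbtb20* 0.47, and none of them was called. The part of pallial neurons in the *Trpc4* values was not tested.

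**Figure D3:**
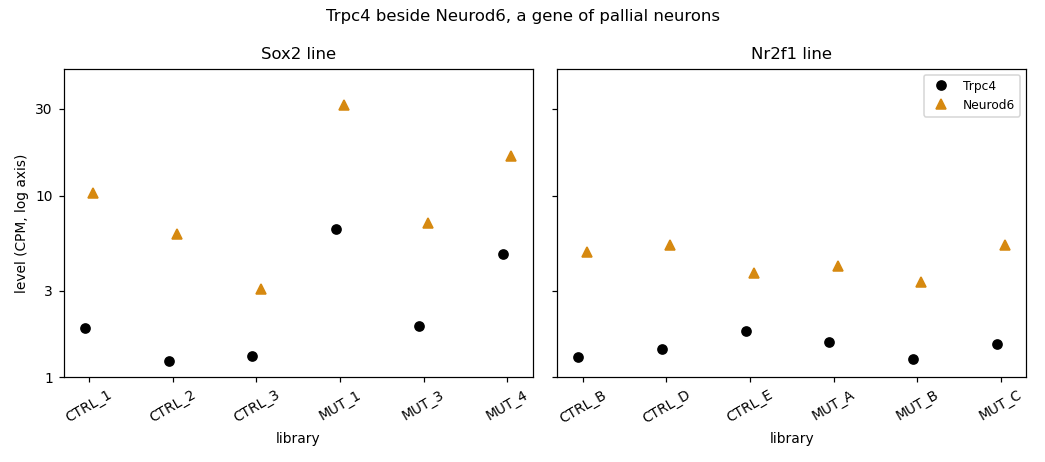
Trpc4 and Neurod6, a gene of pallial neurons, in the 6 libraries of each line, in CPM on a log axis; 1 point a gene and library. In the Sox2 line Trpc4 and Neurod6 were both highest in mutant libraries 1 (6.57 and 31.5 CPM) and 4 (4.76 and 16.6 CPM). Other pallial genes, not shown, did not all follow this order.

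*Trpc1*, a subunit that pairs with TRPC4 and TRPC5, had 27.5, 24.2 and 20.4 CPM in the *Sox2* controls and 19.3, 16.7 and 18.4 in the mutants. The groups did not overlap, yet its -0.41 on the log2 scale (SE 0.12, edgeR FDR 0.0378) missed the threshold. Its *Nr2f1* libraries overlapped, from 24.3 to 26.6 CPM in controls and 20.0 to 26.1 in mutants (log2 fold change -0.11, SE 0.10, edgeR FDR 0.528).

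*Trpc5*, on the X chromosome, overlapped in the *Sox2* line, at 7.65 to 11.5 CPM in controls and 9.22 to 12.6 in mutants (log2 fold change 0.07, SE 0.18, edgeR FDR 0.800). *Nr2f1* mutants lay below their controls, 11.2, 11.0 and 12.5 against 14.0, 13.3 and 14.6 CPM (log2 fold change -0.27, SE 0.09, edgeR FDR 0.103). The pools differed in sex, with the male genes together from 0 to 114 CPM over all libraries. *Xist* was at 0.189 CPM in *Sox2* control library 2, 0.463 in *Sox2* mutant library 1 and 0.283 in *Nr2f1* control library E. *Nr2f1* mutant library A had 1150 CPM of *Xist* and 0 of the male genes. The male genes summed to 43.6 to 97.4 CPM in *Nr2f1* controls and 0 to 52.1 in mutants, so sex was not balanced between them. With the male genes as a covariate the *Nr2f1* line value of *Trpc5* was -0.24 (edgeR FDR 0.317).

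*Trpc6* had the fewest reads, 15 to 42 counts a library. It was at 0.339 to 0.642 CPM in the *Sox2* controls and 0.526 to 1.02 in the mutants (log2 fold change 0.67, SE 0.37, edgeR FDR 0.231). *Nr2f1* mutants, at 0.650 to 0.753 CPM, lay above the controls, at 0.367 to 0.547 (log2 fold change 0.52, SE 0.30, edgeR FDR 0.331). *Trpc7*, at 4.30 to 7.23 CPM in the *Sox2* libraries and 3.89 to 6.83 in the others, overlapped in both lines, with log2 fold changes of 0.32 (SE 0.16, edgeR FDR 0.195) and -0.04 (SE 0.21, edgeR FDR 0.929).

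**Figure D4:**
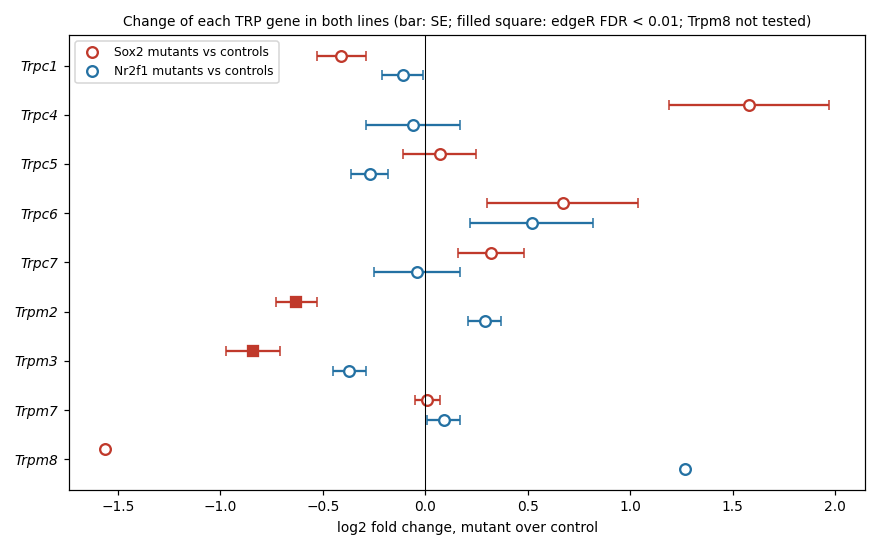
Log2 fold change of mutants over controls for each TRP gene in the Sox2 line (red) and Nr2f1 line (blue), with SE bars; filled squares passed edgeR FDR 0.01, and Trpm8 was not tested and has no bar. Trpm2 lies at -0.63 for Sox2 mutants and 0.29 for Nr2f1 mutants.

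Of the 8 tested genes, 2 were called in the *Sox2* line, both lower. Over all genes, 8.08% were called there, 4.19% lower and 3.90% higher. The mutant and control libraries of 4 of the 8 did not overlap, where 37.9% of all genes did not. Among *Nr2f1* mutants 0 of 8 were called by edgeR, against 2.54% of all genes and 1.32% lower; 3 had an unadjusted p under 0.05, and DESeq2 called 1, *Trpm3*. The libraries of 4 of 8 did not overlap, where 28.6% of all genes did not. In the difference between lines 1 of 8 was called, against 1.44% of genes. *Trpc4* had 1.65 there (SE 0.50, edgeR FDR 0.0998), and the other 6 had -0.47 to 0.37. The 8 had median log2 fold changes of 0.04 in *Sox2* mutants and -0.05 in *Nr2f1* mutants, beside 0.00 and 0.01 for all genes.

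Over the 12 libraries, *Trpm2* and *Trpm8* had a Pearson r of 0.97, and *Trpc1* and *Trpm3* of 0.93. These are descriptions over libraries that share groups and scaling. The genes most like *Trpm8* among 15988 were *Col4a4* (r = 0.985), *Cacna1d* (0.978), *Rasd2* (0.976), *Large* (0.976) and *Gfra1* (0.974). *Col4a4*, a chain of basement membrane collagen, had log2 fold changes of -1.69 and 1.23 in *Sox2* and *Nr2f1* mutants. With the group means removed, the r with *Trpm8* was 0.27 for *Col4a4*, 0.47 for *Cacna1d*, 0.87 for *Rasd2*, 0.36 for *Large* and 0.80 for *Gfra1*. Since *Trpm8* was chosen for its group means, genes with a like pattern of group means rank high here, which is not a test.

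Among the genes most like *Trpc4* were *Gda* (r = 0.944), *Mpped1* (0.936), *Zfp40* (0.932) and *Bcl11a* (0.929), with within-group r from 0.77 to 0.87. Those most like *Trpm3* were *D430041D05Rik* (0.998), *Cacna1b* (0.993), *Dst* (0.993), *L1cam* (0.991) and *Cep120* (0.990), and within groups their r was 0.92 to 0.98.

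A list of 18 other TRP genes held 13 that passed the filter in *Sox2* libraries and 12 in *Nr2f1* libraries. In the *Sox2* line *Trpm6*, a magnesium channel related to TRPM7, fell from 5.24 to 2.63 CPM (-0.99, edgeR FDR 0.00719), and *Pkd2l1*, a polycystin family channel, from 0.766 to 0.155 CPM (-2.29, edgeR FDR 0.00239). *Trpm1* rose from 0.0864 to 0.438 CPM (2.30, edgeR FDR 0.00952), on 2 to 24 counts a library. The call of *Trpm6* held in 7 of 12 alternatives, of *Pkd2l1* in 8 and of *Trpm1* in 2. So 3 of 13 were called in *Sox2* mutants, 1 higher and 2 lower, where 8.08% of all genes were called, and DESeq2 called 2. In *Nr2f1* mutants edgeR called 0 of 12, against 2.54% of all genes, with 0 at an unadjusted p under 0.05 and 0 by DESeq2. The median log2 fold changes were -0.10 and 0.00. In the difference between lines edgeR called 0 of 15, against 1.44% of all genes, with 4 at an unadjusted p under 0.05 and 1 by DESeq2.

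The 26 genes that link Gq-coupled receptors to phospholipase C and calcium stores were mixed in direction. In the *Sox2* line edgeR called 5 of 26, 2 higher and 3 lower, where it called 8.08% of all genes (3.90% higher and 4.19% lower). DESeq2 called 11, and its share over all genes is not given here. *Plcg2* (0.90, edgeR FDR 0.00670) and *Itpr2* (0.44, edgeR FDR 0.00451), a phospholipase and a calcium store channel, rose. *Chrm3*, the muscarinic receptor, fell from 25.6 to 8.93 CPM (-1.52, edgeR FDR 1.77e-04). *Plcb4*, the phospholipase of thalamic relay neurons, fell from 49.3 to 28.7 (-0.78, edgeR FDR 4.44e-04) and *Homer2*, a scaffold of these receptors, from 92.4 to 53.3 (-0.79, edgeR FDR 7.92e-04).

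Of 25 tested in *Nr2f1* mutants 2 passed with edgeR, where 2.54% of all genes did. *Plcb1* rose from 15.9 to 26.6 CPM (0.74, edgeR FDR 0.00212) and *Homer2* fell from 93.1 to 50.2 (-0.89, edgeR FDR 1.89e-04). DESeq2 called 5, again without a share over all genes. *Chrm3* missed the threshold at -1.09 (edgeR FDR 0.0102) and passed in 6 of 11 alternatives. The change differed between lines for 1 of 26, *Plcb4* (-0.65, edgeR FDR 0.00715), where 1.44% of all genes were called. *Plcg2* held its call in 7 of 12 alternatives, *Itpr2* in 6 of 12 and *Plcb1* in 7 of 11, and the *Plcb4* difference in 5 of 16. The list had median log2 fold changes of 0.14 and 0.08.

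Of 8 genes that make or break down ADP-ribose or make PIP2, the lipid that many TRP channels need, 7 passed the filter. In the *Sox2* line edgeR called 0, against 8.08% of all genes, with 3 at an unadjusted p under 0.05 and 1 called by DESeq2. In *Nr2f1* mutants edgeR also called 0, against 2.54% of all genes, with 1 at an unadjusted p under 0.05 and 0 by DESeq2.

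Marker lists of the cells the dissection could hold gave the following sums. Over all genes, edgeR called 8.08% in the *Sox2* line (3.90% higher and 4.19% lower) and 2.54% in the *Nr2f1* line. Astrocyte markers summed to 1198 to 1355 CPM in the *Sox2* controls and 1798 to 2020 in the mutants, with 5 of 7 higher, and 980 to 1026 and 1143 to 1260 in the *Nr2f1* line, where *Aqp4* was higher. Markers of thalamic neurons summed to 1811 to 2272 and 1740 to 1768 CPM in the *Sox2* line, with *Slc17a6*, *Lef1* and *Rora* lower and *Gbx2* higher, and to 2193 to 2357 and 2223 to 2489 in the *Nr2f1* line, with *Lef1* lower and *Cacna1g* higher. In the habenula list, *Chrna3* was lower in *Sox2* mutants, 1 called of 5 tested. *Pou4f1*, *Gng8*, *Chrnb4* and *Gpr151* had log2 fold changes of 0.80, 0.97, 0.57 and 0.08 there and were not called. GABAergic markers summed to 122 to 170 CPM in the *Sox2* controls and 197 to 259 in the mutants. Of these 7, *Otx2* was called higher, and the others had log2 fold changes of 0.32 to 1.29, not called. *Nr2f1* line sums were 143 to 158 and 148 to 269 CPM, with 0 called. *Mbp* of the oligodendrocyte lineage was higher in both lines, 1 called of 6. Endothelial, mural and meningeal lists had 0 called in either line by edgeR, and meningeal sums ranged from 895 to 1796 CPM in *Sox2* controls and 1375 to 3118 in mutants, and from 687 to 1044 and 994 to 2300 in the *Nr2f1* groups.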

How the data were processed

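RNA of dLGNs dissected from pools of 3 animals at P0 was sequenced with a poly(A) library kit. Per the study's methods the authors aligned paired reads with STAR to the RefSeq transcriptome and estimated counts with RSEM; the labels' processing notes name mm10. The deposited values are expected counts per gene, with 7.77% of values not whole, and they were rounded here. Expected counts split reads among overlapping or similar genes, and the counting strand is not given in the sources used here.

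Each line was fitted alone with edgeR 4.0.16 in R 4.3.3 (filterByExpr with a minimum count of 10 and minimum total of 15, TMM scaling, quasi-likelihood F-test), and P values were adjusted by Benjamini-Hochberg over all 15602 (*Sox2*) or 15600 (*Nr2f1*) genes, with a threshold of FDR 0.01. The change in one line minus the other came from a fit over 12 libraries and 15989 genes. CPM uses the TMM scaling of each line. Columns could be tied to a group but not to a single sample. P-values measure the spread among pools, and exact permutation of 3 against 3 libraries cannot go below 0.1. Replicates differed by more than counting noise. The fits were also run on simulated data in which 200 genes were changed. Those changes were larger than the estimates of most tested genes here, so the power at smaller changes was not measured. DESeq2 1.42.0 and other settings were tried as alternatives. All shares over all genes are from the main edgeR fits and do not apply to counts by DESeq2.

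The genes described, the named genes (the TRP genes, those called in the listed pathways, up to 5 genes most like each of *Trpm8*, *Trpc4* and *Trpm3*) and the marker lists (thalamic neurons, astrocytes, microglia, oligodendrocyte lineage, endothelial, mural, meningeal, choroid plexus, pallial, habenula, GABAergic) were chosen with earlier results of these data known. Some listed genes are not reported here and are left out of the counts of their lists, though the fits hold all genes. Promoter sequences are from RefSeq tables on GRCm38.p6, in which all 9 genes matched.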

Additional observations from a re-analysis of the deposited data

Results flagged for a closer look

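The changes of *Trpm2* and *Plcb4* differed between the lines at the threshold. *Trpm8* is listed beside them only because it was selected for this pattern, which is not a result. *Trpm2* had a difference, change in *Sox2* mutants minus change in *Nr2f1* mutants, of -0.91 on the log2 scale (edgeR FDR 7.73e-04). *Trpm8* had -2.82, and this difference was not tested: every library of one mutant lay below its controls and every library of the other above. *Plcb4* had -0.65 (edgeR FDR 0.00715), a difference that passed in 5 of 16 alternatives.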

How the results depend on the processing

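In the *Sox2* line, 2 TRP genes were called. DESeq2 called 4 and FDR 0.05 called 4, and leaving out 1 library gave 0 to 3, with 0 without control library 2 or mutant library 4 and 1 without control library 1. Of the other TRP, Gq and ADP-ribose genes together 8 were called there, against 14 with DESeq2, 17 at FDR 0.05, 14 with 1 fit over 12 libraries and 4 with the male genes as a covariate; leaving out 1 library gave 3 to 12, with 3 without control library 1 or 2, 4 without mutant library 4 and 5 without mutant library 1 or 3. For *Nr2f1* mutants 0 TRP genes were called by edgeR; DESeq2 called 1, FDR 0.05 called 1, and leaving out 1 library gave 0 to 1, with 1 without mutant library B. The 2 pathway genes called there became 5 with DESeq2, 5 at FDR 0.05 and 1 with the male covariate, and 1 to 3 when 1 library was left out, with 1 without control library B or D or mutant library A. In the difference between lines 1 gene was called, and 1 to 2 without a library, with 2, *Trpc4* added, without *Sox2* mutant library 3. In the main edgeR fits, 8.08% of all genes were called in the *Sox2* line, 2.54% in the *Nr2f1* line and 1.44% in the difference. Those shares do not apply to DESeq2 or the other alternatives, whose own shares are not given here. The cause of the changes in count was not tested.

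With a replicate block by column number in the *Sox2* line, 3 TRP genes and 9 pathway genes were called, *Trpc4* added at 1.25 (edgeR FDR 5.28e-04). Only the numbers 1 and 3 occur in both groups, so control library 2 and mutant library 4 each stood alone in a block. The estimates of this fit therefore rest on 2 pairs of libraries, which leaves little to measure the spread. The numbers belong to the columns, and same-numbered libraries had deviations correlated at 0.18 and 0.16. The study's methods describe controls as littermates of the mutants but tie no pool to a litter. Whether same-numbered libraries share more than a number is therefore not known. No paired analysis was possible in the *Nr2f1* line because its groups share 1 letter.

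*Trpm8* ran from -1.68 to -1.42 in *Sox2* mutants and 1.21 to 1.31 in *Nr2f1* mutants over the alternatives. It was selected for these directions in these same libraries, so their holding was set beforehand and is not a test. *Trpm2* passed in 9 of 12 alternatives in the *Sox2* line, *Trpm3* in 10 of 12 and *Trpc4* in 4 of 12. The passes of all these genes include the replicate block. Of 691 values for single genes under alternatives, 618 were unchanged, 23 gained a call and 50 lost one. Unchanged means the same call or, for *Trpm8*, which has no call, a value within the spread of its libraries. Among values called in either fit, 0 reversed direction, while some uncalled values did. For example, *Trpc7* in *Nr2f1* mutants kept its direction in 8 of 11 alternatives, and *Trpc5* in *Sox2* mutants in 9 of 12. Low counts limit the precision for *Trpc6* (15 to 42 counts a library) and *Trpm1*.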

Other observations

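Within 500 kb of *Trpm8*, 9 genes were tested and 2, *Dgkd* and *Ugt1a7c*, were called in *Sox2* mutants and 0 in *Nr2f1* mutants by edgeR. Within 500 kb of *Trpm2*, 3 of 18 were called in *Sox2* mutants and 2 of 18 in *Nr2f1* mutants. Over all genes these shares were 8.08% and 2.54%. Near *Trpm7* 4 of 15 and 1 of 15 were called, near *Trpm3* 1 of 5 and 0 of 5, near *Trpc1* 1 of 10 and 0 of 10, near *Trpc4* 1 of 8 and 0 of 8, near *Trpc7* 1 of 4 and 0 of 4, and near *Trpc5* (2 tested) and *Trpc6* (3 tested) 0 in either line. *Sox2* itself fell in the *Nr2f1* mutants, from 356 ± 16.0 to 243 ± 33.7 CPM (SD, n = 3; log2 fold change -0.55, edgeR FDR 0.00635), while *Nr2f1* in the *Sox2* mutants had 254 ± 51.2 CPM beside 332 ± 21.3 (-0.39, edgeR FDR 0.0559).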
